A study of Mus musculus with 8 samples.

Results

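The genes described here make cholesterol, take it into the cell, move it between membranes and control the transcription factor SREBP2. They were chosen by symbol from a list of 32 genes: 9 of the mevalonate steps, 11 of the sterol steps, 7 of uptake and SREBP control and 5 of intracellular sterol transport. The array table held 42 probes for 28 of them, out of 25697 probes in all. No probe under the symbols Hmgcs1, Mvk, Fdft1 and Npc1 was used here, so their levels were not analysed. RNA was taken from ileal tumours of mice with the APCmin/+ mutation, which predisposes to intestinal tumours. The 4 VP16LXRa tumours were from mice that carry liver X receptor alpha (LXRα, a nuclear receptor activated by oxysterols) joined to VP16, a viral domain that activates transcription, and the 4 VP16 tumours were from mice with the VP16 control transgene. All animals were 8 months old and of a mixed C57BL/6J-FVBN strain. The promoter that drives each transgene, the sex of the animals, and whether each array stands for a separate animal are not stated in the labels, so p-values reflect the spread among the arrays, which may be technical. The arrays keep the numbers of the labels, VP16LXRa 5 to 8 and VP16 1 to 4.

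A cell makes cholesterol from acetyl-CoA, through mevalonate and isoprenoid units to squalene, and then through a chain of ring-modifying steps. When sterols run low in the endoplasmic reticulum, SCAP escorts SREBP2 to the Golgi, where 2 proteases release its transcription factor domain, and the factor then raises the genes of synthesis and lipoprotein uptake. INSIG proteins hold SCAP back when sterols are plentiful. LXR receptors sense oxysterols and act mainly on sterol efflux and fatty acid synthesis, so that in textbook terms the SREBP2 and LXR pathways answer opposite sterol states. The small intestine is an active site of cholesterol synthesis.

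Levels are log2 values of background-corrected, quantile-normalised bead signals, and all differences are VP16LXRa minus VP16 on that scale. A probe was tested where its signal passed the detection threshold on at least 4 of the 8 arrays. That left 35 probes of 25 members, out of 13426 probes tested. Acat1, which acts in mitochondrial thiolysis, was detected on 1 of 4 VP16LXRa arrays and 1 of 4 VP16 arrays and was not tested. Neither Ggps1 probe was detected on more than 1 array. The same held for both probes of Mbtps2, the second of the SREBP-cleaving proteases. The other untested probes were 1 of Insig2, detected on 1 array, and 1 of Mbtps1, detected on none, and both genes had other, tested probes. Each array detected between 49% and 54.7% of its probes. VP16LXRa 5 stood apart, with a median correlation to the rest of 0.869, where the remaining arrays had 0.91 to 0.942. Epithelial markers were present, with Krt8 between 15.03 and 15.43 and the ileal bile acid binding protein Fabp6 between 13.82 and 15.13. Of the other enterocyte genes, Apoa1 lay between 14.47 and 15.39 and Anpep between 11.67 and 15.05. Apoa4 lay between 9.66 and 13.98 and Mep1a between 9.85 and 12.24, while Fabp1, Fabp2 and Slc10a2 were not detected on any array.

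No member differed between VP16LXRa and VP16 tumours by the adjusted test. Of 35 probes, 0 passed an adjusted p of 0.05 in limma's moderated test, where 0% of all tested probes passed, and the members' adjusted p-values were between 0.998 and 0.999. At an unadjusted p under 0.05 there were 2 member probes, 1 of Cyp51 and 1 of Nsdhl, both lower in VP16LXRa tumours, against 2.53% of all tested probes in either direction and 0.812% lower. The same 2 probes were the members whose groups did not overlap, against 1.74% of all tested probes in either direction and 0.722% lower. With each gene taken by its brightest tested probe, 18 of 25 members were lower in VP16LXRa tumours, beside 47% of all 10159 genes, and the median difference was -0.12, beside 0.021 over all genes. These counts were not tested. The count at an unadjusted p under 0.05 ranged from 0 (without VP16 1) to 3 (with array weights) over the alternatives tried. Without VP16 3 the members lower numbered 15, with a median of -0.059, and without VP16LXRa 5 they numbered 17.

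**Figure D1:**
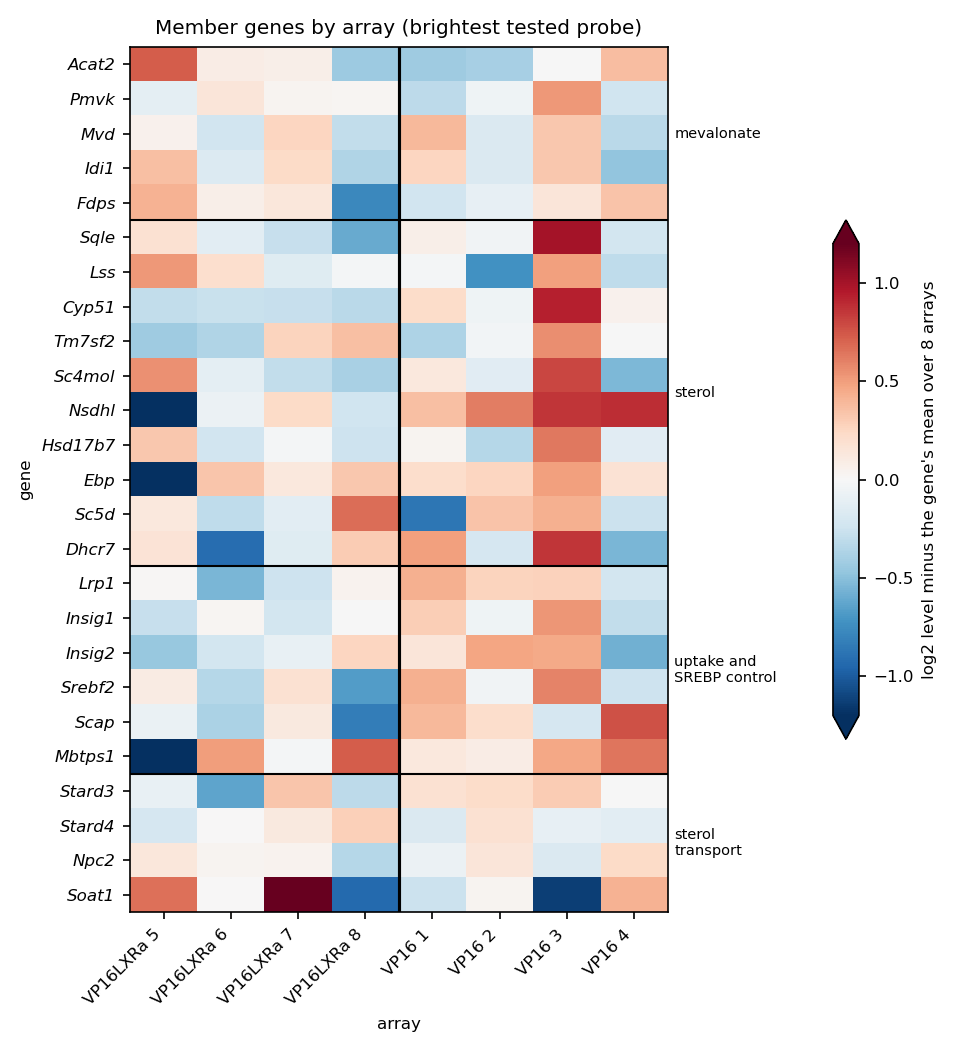
Heat map of the 25 tested members (rows, grouped by step) on the 8 arrays (columns, VP16LXRa left of VP16). Colour is the log2 level of the brightest tested probe minus that gene's mean over the 8 arrays, cut at 1.2 on either side. The sterol rows are red in VP16 3, and Nsdhl, Ebp and Mbtps1 are dark blue in VP16LXRa 5.

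The mevalonate genes lay at similar levels in both groups. Of the 5 tested, 2 were lower and 3 higher in VP16LXRa tumours, with a median difference of 0.033. The sign of that median was not stable: it was -0.083 without VP16LXRa 5 and 0.16 without VP16LXRa 8, and with cyclic loess normalisation 4 of the 5 were lower. Idi1, the isomerase that interconverts the 5-carbon isoprenoid units, had levels of 7.91, 7.38, 7.77 and 7.19 in VP16LXRa tumours and of 7.80, 7.37, 7.86 and 7.07 in VP16 tumours. The groups overlapped throughout, with a difference of 0.033 (SE 0.27, 95% confidence interval -0.57 to 0.64). Fdps, which builds farnesyl diphosphate, the branch point to squalene and to protein prenylation, had 12.35, 12.00, 12.06 and 11.16 in VP16LXRa tumours and 11.69, 11.83, 12.07 and 12.27 in VP16 tumours. VP16LXRa 8 was the lowest array of all and VP16LXRa 5 the highest. The difference was -0.074 (SE 0.29, interval -0.73 to 0.58), -0.23 without VP16LXRa 5 and 0.17 without VP16LXRa 8.

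Acat2, the cytosolic thiolase that joins 2 acetyl-CoA units at the head of the pathway, had 10.20, 9.56, 9.54 and 9.04 in VP16LXRa tumours, against 9.05, 9.08, 9.47 and 9.84 in VP16 tumours. VP16LXRa 5 was the highest array and VP16LXRa 8 the lowest, so the VP16LXRa group spanned the whole range of the controls. The difference was 0.23 (SE 0.30, interval -0.45 to 0.90), 0.022 without VP16LXRa 5 and 0.41 without VP16LXRa 8. Pmvk, phosphomevalonate kinase, differed by 0.041 and Mvd, which decarboxylates mevalonate diphosphate, by -0.11. Over the 5 genes the lowest bound of an interval was that of Fdps, -0.73, and the highest that of Acat2, 0.90. VP16LXRa 5 was the highest of the 8 arrays for 3 of the 5, and also for 26.7% of all tested genes.

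The sterol genes were high in 1 control tumour, VP16 3. Of the 10 tested, 8 were lower in VP16LXRa tumours and the median difference was -0.21. VP16 3 was the highest of the 8 arrays for 7 of these genes, Sqle, Cyp51, Tm7sf2, Sc4mol, Hsd17b7, Ebp and Dhcr7, where it was the highest for 13.2% of all tested genes. For the other 3, Lss, Nsdhl and Sc5d, it was the second highest, so that it was first or second for 10 of 10 sterol genes, beside 27.3% of all genes. All 10 lay above the mean of the other 3 controls, by a median of 0.81 and by up to 1.06 for Sqle, where 50.4% of all genes did and the median was 0.0041. Without VP16 3 the median difference of the step was 0.019, with 5 of 10 genes lower, and without VP16 4 it was -0.43.

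The mean deviation of the sterol genes from their 8-array means was -0.34, -0.18, -0.066 and -0.015 in VP16LXRa 5, 6, 7 and 8, and 0.027, -0.033, 0.70 and -0.090 in VP16 1, 2, 3 and 4. VP16 2 and VP16 4 thus lay within the range of the VP16LXRa tumours and VP16 1 just above it. The value of VP16LXRa 5 rested on Nsdhl and Ebp. For the 8 other sterol genes the mean was 0.14, -0.26, -0.13 and -0.030 in VP16LXRa tumours and -0.038, -0.15, 0.71 and -0.24 in VP16 tumours, so that VP16 3 stayed the highest array, VP16LXRa 5 came next and the other 3 controls lay within the VP16LXRa range. In VP16 3 all 5 mevalonate genes were also above the mean of the other 3 controls, by a median of 0.36. Not all were above every control, and VP16 3 was first or second of the 8 arrays for 3 of these 5. Stromal markers were low on average in VP16 3. The mean deviation of 8 of 8 smooth muscle markers was -2.73 in VP16 3, 0.12 to 1.03 in VP16LXRa tumours and -0.54 to 0.66 in the other VP16 tumours. The summed signal of that list was 31830 to 54590 in VP16LXRa and 3371 to 46470 in VP16 tumours. The list of 8 fibroblast and matrix markers was at -1.64 in VP16 3, with the remaining arrays at -0.30 to 1.03, and its summed signal was 8943 to 21200 in VP16LXRa and 2563 to 21900 in VP16 tumours. The defining muscle marker Des was at 6.64 in VP16 3 and between 10.50 and 12.28 elsewhere. Not every marker fell so far. Mylk of the muscle list was at 10.59 in VP16 3 and between 10.69 and 12.68 elsewhere. Thy1 of the fibroblast list was at 8.52 there, within the 8.11 to 10.65 of the other arrays. The 9 epithelial markers were at 0.34 in VP16 3, beside -0.21 to 0.010 in VP16LXRa tumours and -0.24 to 0.37 in the other VP16 tumours. The part of these values in the sterol levels was not tested. In bulk tissue, fewer cells of a type and less RNA per cell cannot be told apart.

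**Figure D2:**
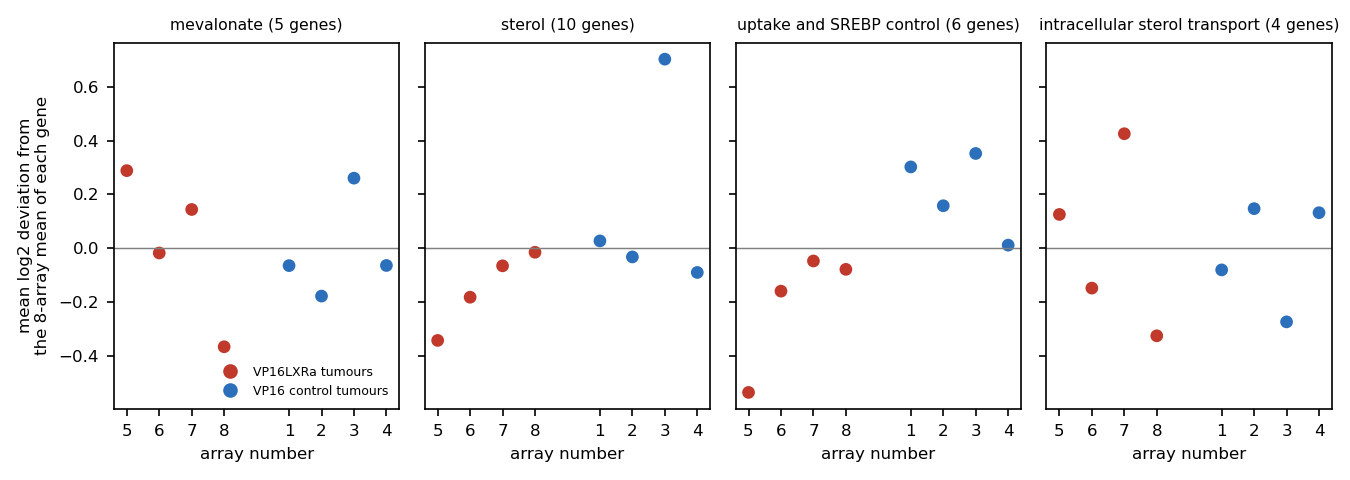
Mean log2 deviation of each step's genes from their 8-array means (y axis) on each array (x axis, numbered as in the labels; VP16LXRa in red, left, and VP16 in blue, right). VP16 3 stands at 0.70 in the sterol panel, above all other arrays, and the groups do not overlap in the panel of uptake and SREBP control.

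Cyp51, lanosterol 14α-demethylase, which removes the first methyl group from the sterol nucleus, had levels of 9.72, 9.75, 9.74 and 9.69 in VP16LXRa tumours and of 10.24, 9.96, 10.95 and 10.06 in VP16 tumours. All 4 VP16LXRa arrays lay below all 4 controls. The mean was 9.72 ± 0.03 in VP16LXRa and 10.30 ± 0.44 in VP16 tumours (SD, n = 4 each), a difference of -0.58 (SE 0.25, interval -1.14 to -0.013, adjusted p = 0.998 in limma's test). The SD in the VP16LXRa group was the smallest among the 25 members and lower than that of all but 0.0492% of tested genes. Without VP16 3 the difference was -0.36 (unadjusted p = 0.113 in limma's test), and without VP16 2 it was -0.69.

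Promoters are shown for what the members share in sequence: Cyp51, the member whose groups were apart, Nsdhl, the other probe without overlap, and Insig1 and Srebf2, which are themselves known SREBP2 targets, each as the 250 bases before the transcription start. A shorter stretch of Stard3 is shown for its match to a form of the sterol regulatory element. All are from RefSeq on GRCm38.p6, written 5′ to 3′ on the gene's strand. Capitals mark CCAAT (the NF-Y box, ATTGG on the other strand) and GGGCGG (the GC box, CCGCCC on the other strand). In Stard3 they mark TCACNCCAC, the form of the sterol regulatory element that was searched for. Other forms were not searched for and are not marked.
Cyp51, chr5:4104698-4104947, minus strand: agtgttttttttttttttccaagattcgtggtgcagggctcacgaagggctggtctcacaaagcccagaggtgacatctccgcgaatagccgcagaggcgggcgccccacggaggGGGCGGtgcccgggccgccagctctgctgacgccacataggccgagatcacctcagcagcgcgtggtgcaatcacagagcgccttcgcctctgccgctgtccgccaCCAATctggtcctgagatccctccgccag
Nsdhl, chrX:72918271-72918520, plus strand: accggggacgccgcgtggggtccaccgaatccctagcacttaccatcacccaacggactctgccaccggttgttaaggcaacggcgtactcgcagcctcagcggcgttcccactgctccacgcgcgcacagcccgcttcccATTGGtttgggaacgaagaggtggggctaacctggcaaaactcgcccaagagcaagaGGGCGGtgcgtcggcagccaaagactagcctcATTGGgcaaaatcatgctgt
Insig1, chr5:28071162-28071411, plus strand: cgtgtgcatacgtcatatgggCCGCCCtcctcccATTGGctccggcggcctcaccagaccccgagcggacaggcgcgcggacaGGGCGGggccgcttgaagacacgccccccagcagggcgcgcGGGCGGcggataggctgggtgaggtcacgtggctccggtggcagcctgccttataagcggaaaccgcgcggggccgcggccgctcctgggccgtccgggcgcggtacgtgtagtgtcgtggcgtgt
Srebf2, chr15:82147019-82147268, plus strand: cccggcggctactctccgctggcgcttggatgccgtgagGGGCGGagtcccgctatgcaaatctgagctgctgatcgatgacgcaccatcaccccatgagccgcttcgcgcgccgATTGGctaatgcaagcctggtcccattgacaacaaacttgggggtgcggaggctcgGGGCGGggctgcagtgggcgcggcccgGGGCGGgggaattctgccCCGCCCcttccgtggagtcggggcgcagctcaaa
Stard3, chr11:98358137-98358185, plus strand: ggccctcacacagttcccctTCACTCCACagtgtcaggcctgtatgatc

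Promoters were found for 26 of the 32 members. On either strand, CCAAT stood in 21 of these genes, or 80.8%. It stood in 40.6% of the 6498 genes tested on the arrays whose promoter was matched by symbol, and in 37.5% of all genes with a promoter. GGGCGG stood in 22 members, or 84.6%, beside 63.1% of those array genes and 35.4% of all genes. The form TCACNCCAC of the sterol element stood in 2 members, Stard3 and Hmgcs1, or 7.69%, beside 1.18% of array genes and 1.22% of all genes. A member without these letters may hold another form of the element, which was not searched for. An LXR element of the DR4 type was searched for only as exact letters, AGGTCA and its repeat 4 bases on. It stood in 0 members, in 0% of array genes and in 0.0148% of all genes. Letters this rare would be absent from nearly any set of 26 genes, so the 0 says nothing about the members. Other forms of this element were not searched for either. All these counts are matches of letters in one window. NF-Y and Sp1, which bind the CCAAT and GC boxes, are known partners of SREBP at sterol genes.

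Nsdhl, the decarboxylating dehydrogenase that acts after the first demethylations, was measured by 4 probes. The brightest (ILMN_2594525) had 4.44, 7.02, 7.32 and 6.85 in VP16LXRa tumours, against 7.45, 7.71, 7.95 and 7.97 in VP16 tumours. All VP16LXRa arrays were lower, and the probe was not detected in VP16LXRa 5. The difference was -1.36 (SE 0.57, interval -2.65 to -0.073, adjusted p = 0.998 in limma's test), and -0.70 without VP16LXRa 5. On the other 3 probes the groups overlapped, with differences of -1.03, -0.95 and -0.25, which were -0.39, -0.29 and -0.38 without VP16LXRa 5. In VP16LXRa 5, 3 Nsdhl probes were not detected while the fourth (ILMN_2958207) was at 6.81, above the other 3 VP16LXRa arrays.

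Sqle, squalene epoxidase, the first oxygen-requiring and a rate-limiting step of the sterol branch, was measured by 2 probes. The brighter (ILMN_2737163) had 11.71, 11.40, 11.25 and 10.93 in VP16LXRa tumours and 11.60, 11.49, 12.52 and 11.31 in VP16 tumours. VP16 3 was the highest array, VP16LXRa 7 and VP16LXRa 8 lay below all controls, and the others overlapped. Its difference was -0.41 (SE 0.31, interval -1.10 to 0.29), -0.14 without VP16 3 and -0.55 without VP16 4. The second probe (ILMN_2600348) had 4.49, 8.64, 8.52 and 8.03 in VP16LXRa tumours and 8.75, 8.42, 9.51 and 8.75 in VP16 tumours. It was not detected in VP16LXRa 5, the array with the highest VP16LXRa value of the first probe. Its difference was -1.44 (SE 0.83) with all arrays and -0.46 without VP16LXRa 5.

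That array lost probes across the whole table. In VP16LXRa 5, 4 of 35 member probes, 3 of Nsdhl and 1 of Sqle, were not detected while the other 7 arrays detected them, beside 6.2% of all tested probes. For the other 7 arrays, 0 member probes did so, beside between 0.0819% and 1.76% of all tested probes. Ebp, the sterol isomerase, had a single probe, with 8.50, 10.74, 10.54 and 10.74 in VP16LXRa tumours, against 10.62, 10.67, 10.91 and 10.58 in VP16 tumours. Its difference of -0.57 was -0.022 without VP16LXRa 5.

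**Figure D3:**
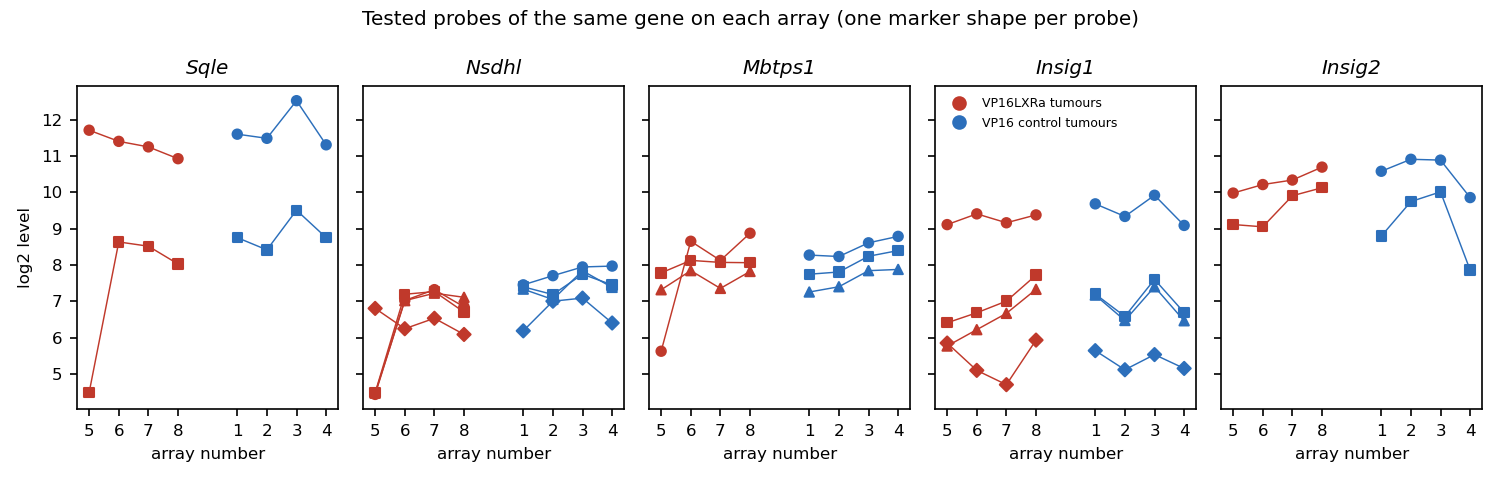
Log2 level (y axis) of every tested probe of the 5 members with more than 1 tested probe, on each array (x axis; VP16LXRa in red, left, VP16 in blue, right; one marker shape per probe). In VP16LXRa 5, 1 Sqle probe and 3 Nsdhl probes fall below 5, and 1 Mbtps1 probe falls to 5.63, while another probe of each gene stays within the range of the other arrays.

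Of the other sterol genes, Lss and Sc5d were the members higher in VP16LXRa tumours. Lss, which folds squalene epoxide into lanosterol, had 9.05, 8.74, 8.39 and 8.51 in VP16LXRa tumours and 8.52, 7.80, 9.02 and 8.24 in VP16 tumours, with VP16 2 the lowest array. The difference was 0.28 (SE 0.30, interval -0.38 to 0.95), 0.084 without VP16 2 and 0.49 without VP16 3. Sc5d, the lathosterol oxidase that sets the last ring double bonds, had 6.74, 6.30, 6.48 and 7.27 in VP16LXRa tumours and 5.74, 6.95, 7.03 and 6.35 in VP16 tumours. The difference was 0.18 (SE 0.34), -0.079 without VP16 1, the lowest array, and 0.35 without VP16 3. Tm7sf2, a sterol reductase, differed by -0.075, and Sc4mol, the C4-methyl oxidase, by -0.12. Hsd17b7, the ketoreductase of the same complex, differed by -0.091, and Dhcr7, which reduces the last double bond on the way to cholesterol, by -0.30. Without VP16 3 the differences of these 4 were 0.098, 0.12, 0.10 and -0.059.

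**Figure D4:**
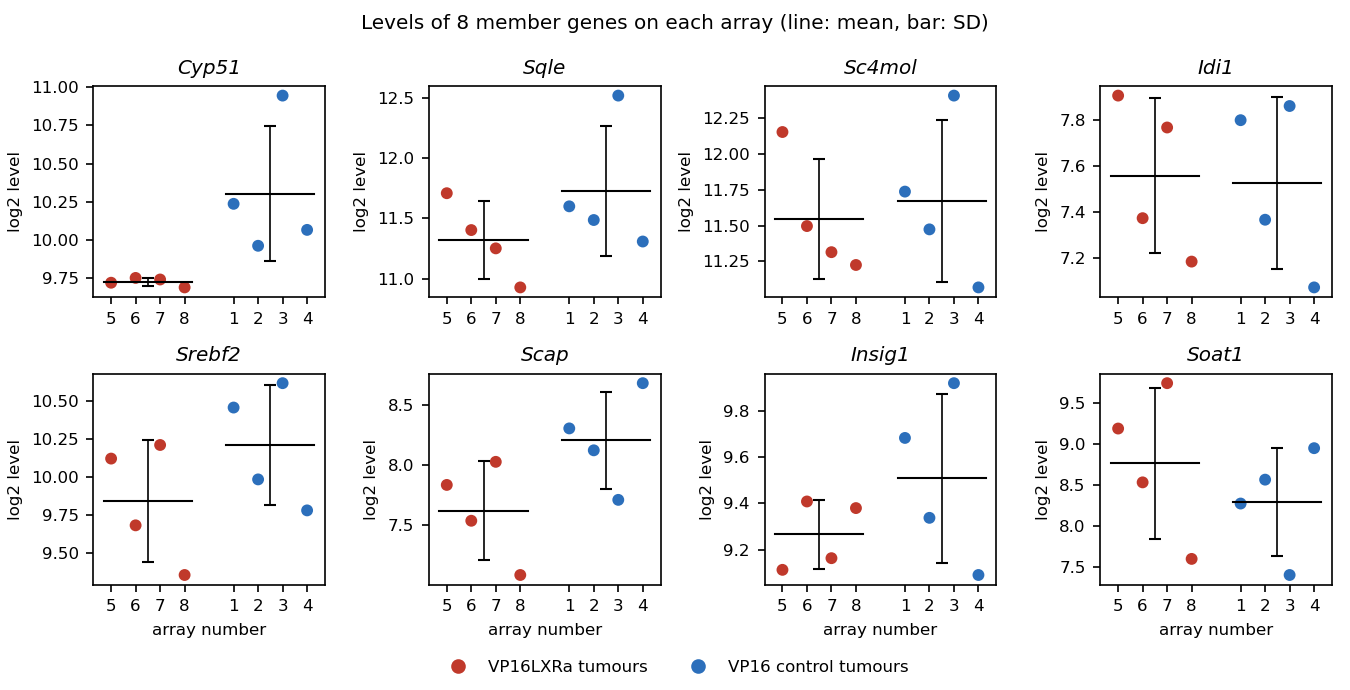
Log2 levels (y axis) of 8 members on each array (x axis; VP16LXRa in red, left, VP16 in blue, right; horizontal line, group mean; bar, SD, n = 4). Cyp51 is between 9.69 and 9.75 in VP16LXRa tumours, below all VP16 tumours, and VP16 3 is the highest array for Cyp51, Sqle, Sc4mol, Srebf2 and Insig1 and the lowest for Soat1.

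All 6 tested genes of uptake and SREBP control were lower in VP16LXRa tumours by their brightest probe, beside 47% of all tested genes. Other probes of some of these genes were near 0 or higher, as given below. By the brightest probes the median difference was -0.37, with differences from -0.66 to -0.24. None of the 6 genes had an unadjusted p under 0.05. Srebf2, the gene of SREBP2, had 10.12, 9.68, 10.21 and 9.35 in VP16LXRa tumours, against 10.46, 9.98, 10.62 and 9.78 in VP16 tumours. VP16 1 and VP16 3 were above all VP16LXRa arrays, and VP16 2 and VP16 4 lay among them. The difference was -0.37 (SE 0.29, interval -1.01 to 0.28), and between -0.51 and -0.21 when single arrays were left out. Like most sterol genes, Srebf2 was highest in VP16 3.

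Scap, the sterol-sensing escort of SREBP2, had 7.83, 7.54, 8.03 and 7.09 in VP16LXRa tumours, against 8.30, 8.12, 7.71 and 8.68 in VP16 tumours. VP16 3 fell among the VP16LXRa arrays and the other 3 controls lay above them. The difference was -0.58 (SE 0.29, interval -1.24 to 0.071, adjusted p = 0.998 in limma's test), and between -0.75 and -0.40 when single arrays were left out. Scap thus ran against Srebf2 and the sterol genes in VP16 3, where it was 0.66 below the mean of the other controls, while Srebf2 was 0.54 above it.

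Insig1, an endoplasmic reticulum anchor of SCAP and itself raised by SREBP2, had 9.11, 9.41, 9.16 and 9.38 by its brightest probe in VP16LXRa tumours, against 9.68, 9.34, 9.92 and 9.09 in VP16 tumours. VP16 3 and VP16 1 were the highest arrays, and VP16 4 the lowest. The difference was -0.24 (SE 0.24, interval -0.78 to 0.29), -0.10 without VP16 3 and -0.38 without VP16 4. Its other probes, dimmer by more than 2 log2 units on average, differed by -0.064, -0.38 and 0.036. Insig2, its paralogue, had 9.98, 10.21, 10.34 and 10.69 by the brighter probe in VP16LXRa tumours, against 10.58, 10.91, 10.89 and 9.86 in VP16 tumours, a difference of -0.25 (SE 0.29). The second Insig2 probe had 9.11, 9.05, 9.91 and 10.13 in VP16LXRa tumours and 8.80, 9.75, 10.01 and 7.86 in VP16 tumours. It differed by 0.45 (SE 0.49), so the probes of Insig2 disagreed in direction. VP16 4 was the lowest array on both, and without it the differences were -0.49 and 0.032. Without VP16 3 they were -0.14 and 0.75.

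Mbtps1, the first of the proteases that cleave SREBP2, differed by -0.66 (SE 0.64) on its brightest probe, which had 5.63, 8.65, 8.13 and 8.88 in VP16LXRa tumours, against 8.27, 8.23, 8.61 and 8.79 in VP16 tumours. Its other tested probes differed by -0.037 and -0.010. Without VP16LXRa 5 the first probe differed by 0.075, so the count of 6 lower became 5. Lrp1, an endocytic receptor for lipoprotein remnants, had 7.29, 6.73, 7.04 and 7.32 in VP16LXRa tumours, against 7.71, 7.55, 7.56 and 7.06 in VP16 tumours. VP16 4 fell within the VP16LXRa range and the other 3 controls lay above it. The difference was -0.37 (SE 0.24, interval -0.90 to 0.16), and between -0.51 and -0.25 when single arrays were left out.

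The mean deviation of these 6 genes was -0.54, -0.16, -0.048 and -0.079 in VP16LXRa 5 to 8, and 0.30, 0.16, 0.35 and 0.011 in VP16 1 to 4. The groups did not overlap, by a margin of less than 0.06 between VP16LXRa 7 and VP16 4. Without Mbtps1 they overlapped: the 5 other genes were at -0.14, -0.29, -0.053 and -0.24 in VP16LXRa tumours and at 0.34, 0.17, 0.33 and -0.11 in VP16 tumours. The 5 were lower in VP16LXRa tumours by their brightest probe whichever single array was left out. The median of the 6 was -0.19 when both VP16LXRa 5 and VP16 3 were left out.

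**Figure D5:**
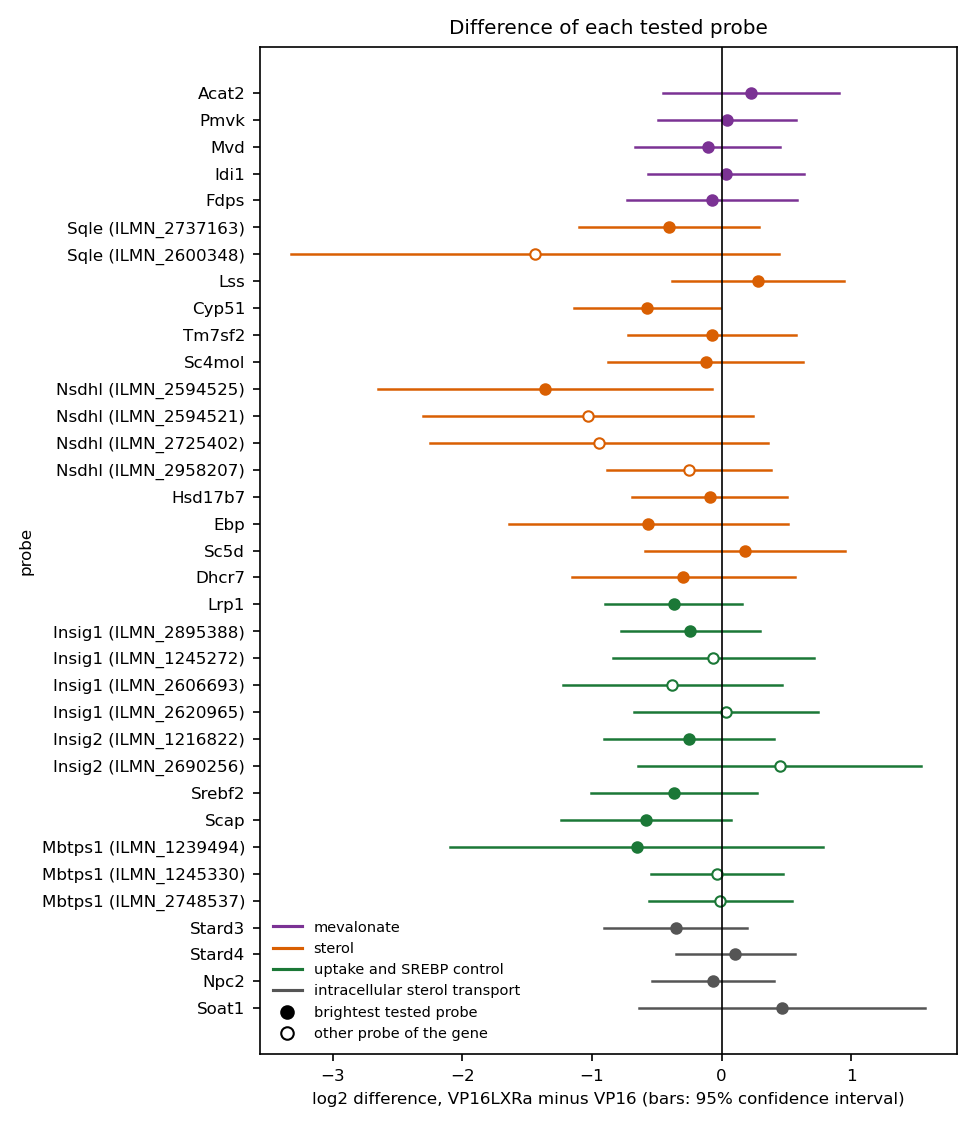
Log2 difference, VP16LXRa minus VP16 (x axis), of the 35 tested member probes (rows; filled, brightest probe of the gene; open, its other probes; bar, 95% confidence interval of limma's fit). The intervals of Cyp51 and of 1 Nsdhl probe lie below 0 and those of the other 33 probes include 0.

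Genes of intracellular sterol transport went both ways. Of the 4 tested, 2 were lower and 2 higher, with a median of 0.019. Soat1, which esterifies cholesterol for storage and so takes it out of the free pool, had 9.19, 8.53, 9.74 and 7.59 in VP16LXRa tumours and 8.27, 8.56, 7.40 and 8.95 in VP16 tumours. The groups overlapped, with VP16 3 the lowest array and VP16LXRa 7 the highest. The difference was 0.47 (SE 0.49, interval -0.63 to 1.57), 0.17 without VP16 3, 0.14 without VP16LXRa 7 and 0.86 without VP16LXRa 8. Soat1 was thus lowest in VP16 3, where 7 of the 10 sterol genes were highest. VP16 3 was the lowest of the 8 arrays for 16.5% of all tested genes, and a link between these levels was not tested. Soat2, an esterifying enzyme outside the members, was not low there, at 12.07 in VP16 3 and between 10.29 and 12.55 elsewhere. Stard4, a soluble sterol carrier, had 11.21, 11.42, 11.53 and 11.70 in VP16LXRa tumours and 11.24, 11.60, 11.32 and 11.29 in VP16 tumours. Its range over the 8 arrays, 0.49, was the narrowest of the members, and its difference was 0.11 (SE 0.20, interval -0.35 to 0.57), with 0.028 without VP16LXRa 8 and 0.19 without VP16LXRa 5.

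Stard3, a sterol carrier of late endosomes, had 7.26, 6.72, 7.69 and 7.03 in VP16LXRa tumours and 7.54, 7.57, 7.65 and 7.35 in VP16 tumours. The controls lay close together and VP16LXRa 7 lay above them all. The difference was -0.35 (SE 0.25, interval -0.91 to 0.20), -0.52 without VP16LXRa 7 and -0.20 without VP16LXRa 6. Npc2, the lysosomal protein that hands cholesterol on from the lumen, differed by -0.068 (SE 0.21).

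Neighbouring genes of the pathway, in lists drawn up from their roles, gave no call either. Of 10 tested genes of the isoprenoid branches, 0 passed the adjusted test, with 5 higher and 5 lower. The same held for 7 partners of sterol enzymes (4 higher, 3 lower) and for 10 genes of SREBP handling and sterol-linked degradation (5 higher, 5 lower). It held for 6 lipoprotein receptors and related genes (3 higher, 3 lower) and for 10 sterol carriers and esterifying enzymes (6 higher, 4 lower). No gene of these 5 lists had an unadjusted p under 0.05, and the list medians lay between -0.057 and 0.050. Srebf1 (ILMN_2792089), the paralogue of Srebf2 that drives fatty acid synthesis and is a known LXR target, is named here after its values were seen. It had 5.95, 7.72, 7.18 and 8.56 in VP16LXRa tumours and 4.58, 5.55, 6.45 and 7.45 in VP16 tumours, so the groups overlapped. Its difference was 1.34 (SE 0.68, interval -0.20 to 2.89), opposite in sign to the -0.37 of Srebf2. The unadjusted p was 0.0804 and the adjusted p 0.998 in limma's test. The 4.58 of Srebf1 in VP16 1 lay near the 4.44 to 4.49 of the member probes not detected in VP16LXRa 5. The size of its difference thus rests in part on a value near the background. The difference between Srebf1 and Srebf2 was not tested.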

How the data were processed

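RNA of 8 ileal tumours, 4 VP16LXRa and 4 VP16, was measured on Illumina BeadChips. The deposited table gives for each probe and array an average bead intensity (linear) with its detection p-value, per the file headers. The submitters' processing notes name GenomeStudio, with no version. A second deposited table holds intensity values that the authors had processed further, by steps the labels do not state, and was used as an alternative with a floor of 16.

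Background was corrected by normexp in limma 3.58.1 (R 4.3.3), the negative controls being deduced from detection p-values, with offset 16. Arrays were quantile-normalised and log2 taken. Probes with detection p under 0.05 on at least 4 arrays entered lmFit and eBayes over the whole table (two-sided, Benjamini-Hochberg adjustment, threshold 0.05). Each gene stands for its brightest tested probe, by mean level. Symbols are those of the deposited table (Sc4mol is now Msmo1). The members and lists were chosen with earlier results of these data known, so counts over them are descriptions. Array values and statistics are given for the 5 members with the smallest p in each direction, members whose groups do not overlap, and a list of control genes (Sqle, Idi1, Fdps, Insig1, Insig2, Srebf2, Scap, Lrp1, Stard4 and Soat1 among them). Array values of Ebp, Mbtps1 and second probes were chosen for printing with the data in view. Simulated data with known answers were used to test the code path. Labels give no batch or chip, and the number of arrays limits the precision.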

Additional observations from a re-analysis of the deposited data

Results flagged for a closer look

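Within the groups of 4 arrays, 82 sets of values were examined for an array far from its group. Such an array was found in 7, and chance alone flags about 1 in 20, or 4.1. The sets are not independent, since some are probes of the same gene and the sterol genes are part of all synthesis genes. The 4.1 is therefore only a rough guide. The second Sqle probe (ILMN_2600348) was at 4.493 in VP16LXRa 5, while its group otherwise ranged over 8.03 to 8.64. The brightest Nsdhl probe (ILMN_2594525) was at 4.44 there, against 6.85 to 7.32, and a further Nsdhl probe (ILMN_2725402) at 4.471, against 7.02 to 7.22. The Ebp probe was at 8.497 there, against 10.54 to 10.74. The mean deviation of the sterol genes was 0.7033 in VP16 3, where the remaining controls had -0.090 to 0.027. That of all synthesis genes was 0.5557 in VP16 3, where the remaining controls had -0.082 to -0.0037. In VP16LXRa 7 the same mean was 0.004081, against -0.133 to -0.128 in its group.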

How the results depend on the processing

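No member probe passed an adjusted p of 0.05 under the alternatives tried, nor 0.1 in the main setting. At an unadjusted p under 0.05 there were 2, and between 0 and 3 over the alternatives. Cyp51 lost that level with the authors' values (p = 0.0536 in limma's test), scale normalisation (0.141) and without VP16 3 (0.113), and also without VP16 1 or any VP16LXRa array (0.0665 to 0.0834). Nsdhl lost it without any single VP16 array (0.0528 to 0.0826). Array weights called Cyp51, Lrp1 and Scap in place of Cyp51 and Nsdhl (0.0649). When single arrays were left out, the members' median difference ranged from -0.326 (without VP16 4) to -0.0591 (without VP16 3). Some small differences changed sign, and the cause was not tested. Under array weights they were -0.124 for Idi1, 0.0165 for Fdps and -0.238 for the dimmest Insig1 probe (ILMN_2620965), and under cyclic loess -0.033 for Idi1. Without both VP16LXRa 5 and VP16 3, a choice made after seeing the data, 3 Insig1 probes had 0.313 (ILMN_1245272), 0.0365 (ILMN_2606693) and -0.058 (ILMN_2620965). Leaving out single arrays gave -0.118 to 0.158 for Idi1, -0.226 to 0.171 for Fdps, -0.0788 to 0.351 for Sc5d, -0.319 to 0.131 for ILMN_1245272 and -0.143 to 0.266 for ILMN_2620965. A BeadChip block could not be fitted because no chip is recorded. No paired analysis was possible because the groups share no replicate numbers.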
